A study of Mus musculus with 5 samples.

Results

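The splicing factor genes described here are the 61 protein-coding genes, of 21938 in the GENCODE annotation of GRCm38, whose symbol starts with Srsf, Hnrnp, Sf3a, Sf3b, Snrp or U2af, or is Clk1 to Clk4, Tra2a or Tra2b. They comprise 20 hnRNP genes, 12 snRNP genes, 11 SR protein genes, 9 SF3A and SF3B genes, 4 CLK kinase genes, 3 U2AF genes and 2 Tra2 genes. A promoter peak is a peak of acetylated histone ChIPseq that lies within 3000 bp of any annotated transcription start site of the gene, and the rule reads gene symbols and no peak values. ChIPseq was performed on in vitro differentiated memory CD8+ T (TM) cells, which are splenic T cells activated through their antigen receptor and then cultured with IL-15. The paper's method for this differentiation names OT-I T cells activated with OVA peptide, and its ChIPseq legend names splenic T cells. The 2 WT libraries were labelled wildtype (replicates 1 and 2). The 3 TPdh-/- libraries (replicates 1, 2 and 3) came from mice with a floxed Pdha1 gene, which encodes the E1 alpha subunit of the pyruvate dehydrogenase complex, deleted by a Cre transgene under the Cd4 promoter. The Cd4 promoter is active in developing T cells of the thymus, including those that become CD8+ T cells, so this Cre acts before the cells are activated or cultured. Male and female mice aged 8 to 12 weeks were used in the study, and the labels do not say which animal, sex or litter a library came from. Chromatin was precipitated with an antibody against acetylated histone that the sample labels assign to lysine 18.

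Splicing removes introns from pre-mRNA. The U2AF proteins recognise the 3′ splice site, the SF3A and SF3B proteins hold the U2 snRNP at the branch point, and the Sm proteins encoded by several Snrp genes form the ring around the spliceosomal small nuclear RNAs. SR and Tra2 proteins bind exons and mostly favour their inclusion, many hnRNP proteins oppose it, and the CLK kinases phosphorylate SR proteins. In T cells the best known target is Ptprc, which encodes CD45 and whose variable exons are skipped in memory cells under the control of Hnrnpll. Acetylation of histones around start sites is a general feature of active promoters and uses acetyl-CoA, to which the pyruvate dehydrogenase complex contributes. The study asked whether loss of this enzyme changed histone acetylation in TM cells.

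The lists held 15962 and 8859 peaks in WT replicates 1 and 2, and 4920, 5419 and 9418 peaks in TPdh-/- replicates 1, 2 and 3, so the longest list was WT replicate 1 and the shortest TPdh-/- replicate 1. Per the labels, sequencing aimed for at least 37000000 reads of 51 bases. The lists do not give the reads that were aligned and kept in each library, so no interval for counting error can be given, and a promoter without a peak is one where none was called, not one without acetylation. Promoter peaks were called at 10, 8, 4, 6 and 9 of 10 T cell marker genes in WT replicates 1 and 2 and TPdh-/- replicates 1, 2 and 3. Cd8b1 had a peak in all 5 lists and Cd8a in WT replicate 1 alone. No peak was called at 6 myeloid and 4 erythroid markers, while 1 of 6 B cell markers and 2 of 4 NK cell markers had one in WT replicate 1 alone, and Cd4 had one in both WT libraries. The part of other cells in the results was not tested. Pdha1 (chrX:160122209-160138413) had its only promoter peak in WT replicate 1, at percentile 18.4. A promoter peak does not check the deletion, since the deleted part of the gene is not known from the labels.

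Promoter DNA of 6 members is shown, to set the sequence at strongly ranked promoters beside that at promoters with few or no peaks. The first 3 are the members with a peak in all 5 libraries with the highest mean percentile of peak rank, among those with at least 100 bases free of annotated exons before the start site in the RefSeq promoter table of GRCm38.p6. The other 3 are both members without a promoter peak in any library, and the member called in both WT lists but in none of the others. Capitals mark the GC box (GGGCGG), the CCAAT box (CCAAT) and the ETS motif (CCGGAAG) on either strand, and every stretch is given 5′ to 3′ on the strand of the gene. A peak was called over or beside the first 3 in every library, at chr6:49264053-49264302 (minus strand), chr12:80945397-80945498 (plus strand) and chr13:58128557-58128806 (minus strand).
Tra2a: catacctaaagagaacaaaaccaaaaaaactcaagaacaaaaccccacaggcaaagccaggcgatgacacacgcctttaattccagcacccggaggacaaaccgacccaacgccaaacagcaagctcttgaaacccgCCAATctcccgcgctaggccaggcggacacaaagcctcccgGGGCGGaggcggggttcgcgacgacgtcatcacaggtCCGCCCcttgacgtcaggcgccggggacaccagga
Srsf5: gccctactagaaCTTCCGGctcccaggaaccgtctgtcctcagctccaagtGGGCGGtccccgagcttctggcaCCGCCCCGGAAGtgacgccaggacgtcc
Hnrnpa0: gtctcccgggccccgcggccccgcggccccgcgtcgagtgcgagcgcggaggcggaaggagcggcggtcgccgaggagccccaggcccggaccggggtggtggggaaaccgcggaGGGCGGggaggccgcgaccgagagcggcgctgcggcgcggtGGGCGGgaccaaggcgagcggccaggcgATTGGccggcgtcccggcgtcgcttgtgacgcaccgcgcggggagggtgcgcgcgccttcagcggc
No promoter peak was called at Sf3a3, chr4:124714611-124714775 (plus strand), or Snrpn, chr7:60140226-60140475 (minus strand), and Snrpb2, chr2:143062819-143063038 (plus strand), had one in both WT libraries only.
Sf3a3: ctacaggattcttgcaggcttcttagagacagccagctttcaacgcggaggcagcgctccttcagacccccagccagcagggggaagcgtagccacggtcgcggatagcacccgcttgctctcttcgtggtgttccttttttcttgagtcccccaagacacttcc
Snrpn: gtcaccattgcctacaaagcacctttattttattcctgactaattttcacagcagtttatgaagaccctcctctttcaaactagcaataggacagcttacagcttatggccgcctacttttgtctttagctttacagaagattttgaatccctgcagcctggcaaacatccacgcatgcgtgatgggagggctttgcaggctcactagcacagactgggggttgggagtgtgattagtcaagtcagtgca
Snrpb2: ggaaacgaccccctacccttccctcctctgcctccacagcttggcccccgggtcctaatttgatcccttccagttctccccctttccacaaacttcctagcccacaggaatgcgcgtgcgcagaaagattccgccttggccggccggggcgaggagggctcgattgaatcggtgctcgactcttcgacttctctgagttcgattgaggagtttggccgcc
The stretches of Tra2a, Srsf5 and Hnrnpa0 held 20, 8 and 46 CpG dinucleotides and 3, 4 and 3 of these motifs. The stretches of Sf3a3, Snrpn and Snrpb2 held 9, 3 and 15 CpG dinucleotides and 0 motifs, which says only that these letters are not in these windows. The stretches differ in length (102 to 250 bases), and the full RefSeq windows, which reach 50 bases past the start, held an ETS motif at Sf3a3, a GC box and an ETS motif at Snrpb2, and a CCAAT box in 1 of the 4 Snrpn promoters. Tra2a and Srsf5 encode exon-binding splicing activators, and Hnrnpa0 encodes a small hnRNP A/B protein. Snrpn, which encodes a tissue-restricted Sm B paralog, is expressed mainly in brain and from the paternal allele.

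Promoter sequences of RefSeq (250 bases before to 50 after the start) were found for 53 of the 61 members, 71 sequences in all. Clk1, Hnrnpll, Hnrnpul2, Sf3b4, Sf3b5, Snrpb, Snrpd1 and U2af2 were not matched. The median CpG observed to expected ratio was 0.933 over the member promoters against 0.588 over 20150 promoters of all coding genes, and 91.5% of the member promoters reached 0.6 against 49.1% of all. The ratio did not separate members with a peak in all 5 libraries from those with a peak in 1 to 4, whose medians were 0.933 (31 promoters) and 0.96 (35 promoters). Of the members without a peak, Sf3a3 had a ratio of 0.845 at its 1 promoter, and Snrpn had ratios of 0.132 to 0.574 at its 4 promoters. A GC box was found in 70.4% of member promoters (47.8% of all), a CCAAT box in 45.1% (37.8%) and an ETS motif in 31% (11.9%). The TATA box TATAAA was found in 9.86% (12.1%), the NRF1-type motif TGCGCATGC in 2.82% (2.05%) and the YY1-type motif AAGATGGC in 2.82% (3.11%), all on either strand. Among members with a peak in all 5 libraries, 58.1% of promoters had a CCAAT box and 22.6% an ETS motif, against 37.1% and 40% of those with a peak in 1 to 4. For coding genes the same split gave 34.5% and 23.4% against 38.4% and 18.6%. A GC box was found in 77.4% of promoters of members with a peak in all 5 libraries and in 59.2% of those of coding genes with a peak in all 5, and a CpG ratio of 0.6 was reached by 96.8% and 72% of them. These are descriptions of promoters, several of which belong to 1 gene, and no test was made.

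Promoter peaks were called more often at splicing factor genes than at coding genes at large, in each of the 5 libraries. A promoter peak was called at 58 of the 61 members (95.1%) in the first WT library and 46 (75.4%) in the second, and at 33 (54.1%), 38 (62.3%) and 47 (77%) in TPdh-/- replicates 1, 2 and 3. The same share over all 21938 coding genes was 42.1% in WT replicate 1, 24.8% in WT replicate 2, 15.3% in TPdh-/- replicate 1, 16.5% in TPdh-/- replicate 2 and 27.9% in TPdh-/- replicate 3. The share of members was thus 2.26-fold and 3.04-fold that of all coding genes in the WT lists and 3.54-fold, 3.77-fold and 2.76-fold in the TPdh-/- lists. Per library, WT cells had 52 ± 8.49 members with a peak (SD, n = 2) and TPdh-/- cells 39.3 ± 7.09 (SD, n = 3), and the groups overlapped, since TPdh-/- replicate 3 lay above WT replicate 2. The order of the libraries was that of the length of the lists, for the members as for all coding genes. When every list was reduced to its 4920 strongest peaks, 43 and 35 members had a peak in the WT libraries and 33, 38 and 40 in the TPdh-/- libraries, while 15.3% to 19.9% of all coding genes did.

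**Figure D1:**
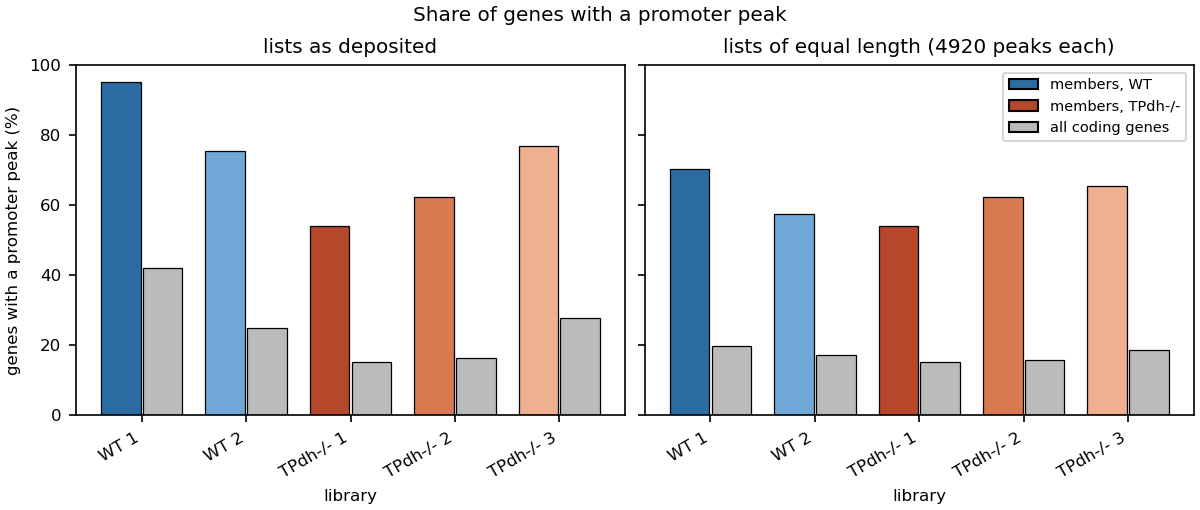
Share of genes with a promoter peak in each library (%), for the 61 splicing factor genes (coloured bars, WT blue, TPdh-/- red) and all coding genes (grey bars), in the lists as deposited (left) and reduced to equal length (right). Members exceed all genes in every library. At equal length the WT bars of the members stand at 70.5% and 57.4% and the TPdh-/- bars at 54.1%, 62.3% and 65.6%.

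A peak in all 5 libraries was found at 28 of 61 members (45.9%), against 10.9% of all coding genes. Of genes with a peak in at least 1 library these were 28 of 59 members (47.5%) and 25.2% of all. Only Sf3a3 and Snrpn had no promoter peak in any library (3.28% of members, against 56.7% of all coding genes). Of 305 combinations of a member and a library, 83 had no promoter peak. In these the nearest peak was a median of 40942 bp from a start site, and the least distance was 4291 bp, at Sf3a3 in WT replicate 1. Just inside the limit of 3000 bp lay the single peak of Sf3b5, which began 2711 bp downstream of the start site. Peaks of 9 members, Sf3a1, Sf3b2, Sf3b5, Snrpd1, Snrpd2, Snrpe, Snrpf, Srsf10 and Srsf12, were confined to WT replicate 1 (14.8%), which was near the share of all coding genes (11.2%). A peak in the 2 WT libraries but none of the others was seen at Snrpb2 alone (1.64%, against 2.21% of all coding genes), and at no member was the reverse found. Of the other members, 7 (Hnrnpc, Snrpa, Snrpa1, Snrpg, Srsf2, Srsf6 and Srsf11) lacked a peak only in TPdh-/- replicate 1 (3.16% of all coding genes). A further 5 (Clk2, Hnrnpdl, Sf3b1, Sf3b6 and Snrpd3) lacked one only in TPdh-/- replicate 2 (2.71% of all coding genes). Hnrnph2, Snrpc, Srsf7 and U2af1l4 lacked one in both of these libraries (4.81% of all coding genes), and U2af1 in TPdh-/- replicates 1 and 3 (0.283%). Srsf4, Hnrnpab, Hnrnpd and Srsf9 lacked one in WT replicate 2 and in 1 to 3 further libraries.

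The share of genes called in every library ranged widely between the families. Both Tra2 genes, 3 of 4 CLK genes and 15 of 20 hnRNP genes had a peak in all 5 libraries, whereas this held for 3 of 11 SR protein genes, 3 of 9 SF3A and SF3B genes, 1 of 3 U2AF genes and 1 of 12 snRNP genes. No hnRNP member lacked a peak in WT replicate 1, and 16 to 19 of 20 had one in each TPdh-/- library. Of the 7 Sm core genes, all had a peak in WT replicate 1 and only Snrpb had one in every library, while 2, 2 and 3 of the 7 had one in TPdh-/- replicates 1, 2 and 3. The families also differ in annotated start sites, with a median of 8 per hnRNP gene, 6 per SR protein gene, 3 per Sm core gene and 3 per coding gene, which gives some genes more chances of a match. With the 5′-most start site of each gene alone, the number of members with a peak in all 5 libraries stayed at 28, and the share of all coding genes was 9.61%.

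**Figure D2:**
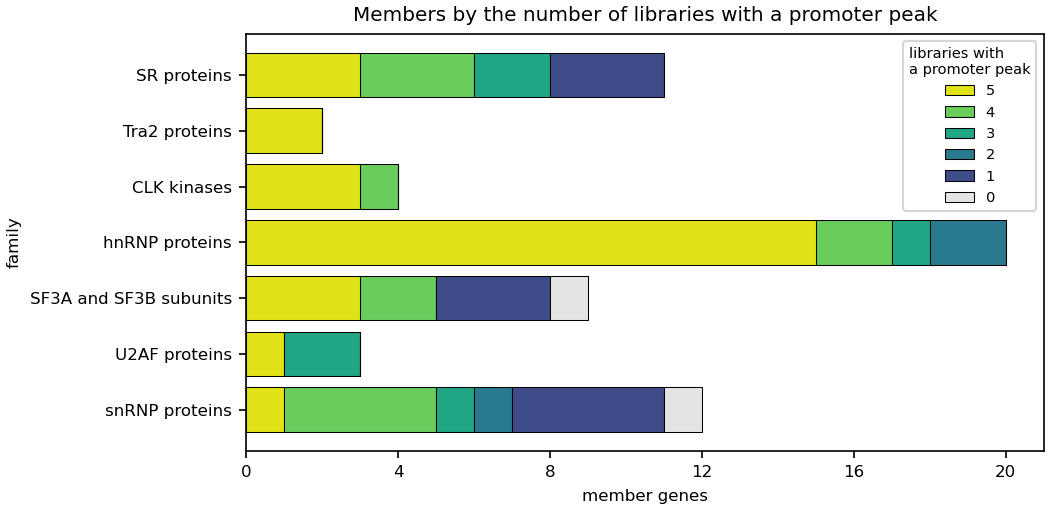
Number of member genes of each family (x axis, genes) by the number of libraries, 0 to 5, in which the gene had a promoter peak. The hnRNP, CLK and Tra2 families consist mostly of genes with a peak in all 5 libraries, and most snRNP and SF3 genes had a peak in fewer.

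Peaks were next ranked within each list by the −log10 q that the authors' caller gave them, and the strongest promoter peak of a gene received the percentile of its rank, from 0 (no peak) to 100. The 28 members with a peak in all 5 libraries had a median percentile of 93.8 and 86.2 in WT replicates 1 and 2 and of 85.4, 85.9 and 90.2 in TPdh-/- replicates 1, 2 and 3. The 2390 coding genes with a peak in all 5 libraries had medians of 89, 79.3, 67.8, 70.9 and 81.6 in the same order. A promoter peak at or above percentile 90 was held by 24, 10, 10, 11 and 14 members, or 39.3%, 16.4%, 16.4%, 18% and 23%, against 7.25%, 3.74%, 2.18%, 2.47% and 4.42% of all coding genes.

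**Figure D3:**
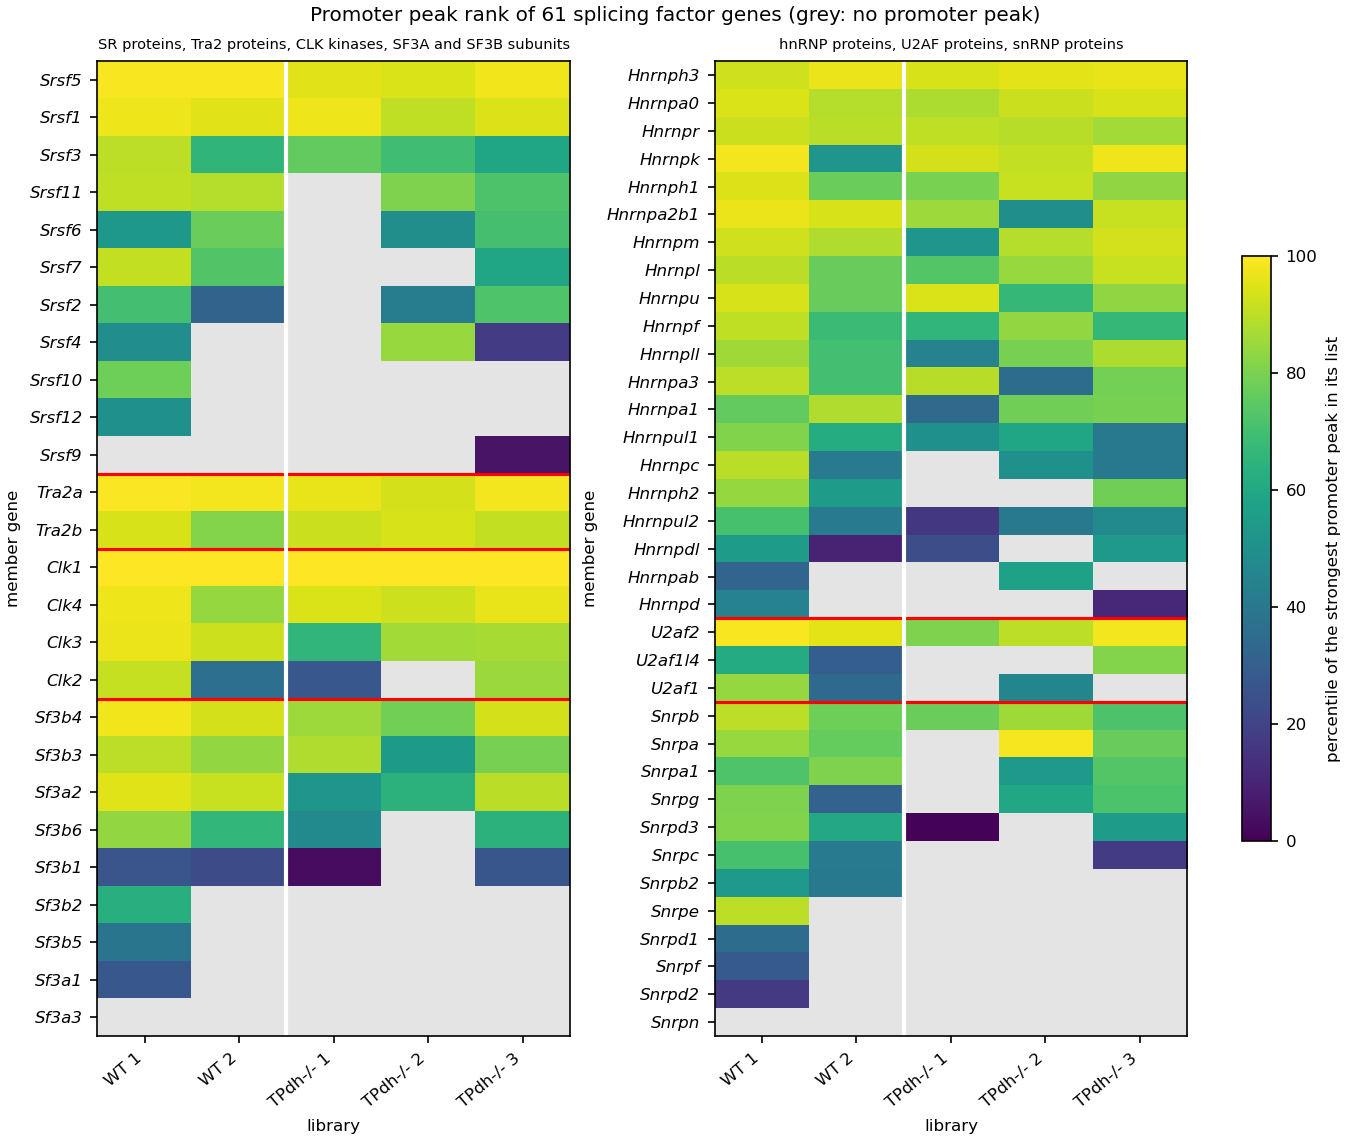
Percentile of the strongest promoter peak (colour, 0 to 100 within each list, grey where no peak was called) for the 61 members (rows, sorted by mean percentile within each family, families parted by red lines) in the 5 libraries (columns). Clk1, Tra2a, Srsf5, Srsf1 and Hnrnph3 stayed above percentile 90 throughout, and the lower rows of the SF3 and snRNP families have at most the WT replicate 1 peak.

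Among the kinases, Clk1, whose product phosphorylates SR proteins and whose own transcript is regulated by intron retention, carried one of the strongest peaks of every list. It ranked 9, 12, 11, 12 and 8 in the lists of WT replicates 1 and 2 and TPdh-/- replicates 1, 2 and 3. Its fold over background was 4.59 and 4.21 in WT and 4.97, 4.26 and 4.49 in TPdh-/- cells, so the groups overlapped. Clk4 (chr11:51261730-51281766), a kinase of the same family, was at the 97.4 and 84.2 percentile in WT and at 94.2, 92.2 and 96.7 in TPdh-/- cells. WT replicate 2 was the lowest of these and WT replicate 1 the highest. Clk3 was above all TPdh-/- libraries in both WT libraries, at 97 and 92.4 against 65.8, 86 and 87.1, and Clk2 had no peak in TPdh-/- replicate 2.

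Tra2a (chr6:49243924-49264033) and Tra2b (chr16:22244549-22266005) encode the transformer-2 activators, which bind GAA-rich exons. Tra2a was at 99.6 and 98.4 in WT and at 96.8, 93.7 and 98.2 in TPdh-/- cells, so that both WT libraries lay above all others, by 2.71 percentile points on average (exact permutation test, two-sided p = 0.2). Tra2b was at 93.9 and 81.4 in WT and at 91.9, 93.8 and 90.7 in TPdh-/- cells, with WT libraries on both sides of the TPdh-/- values. The smallest p that 2 against 3 libraries allow in this test is 0.2, so that no gene could pass 0.05 and every comparison here rests on whether the groups overlap.

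Of the SR proteins, Srsf1 (chr11:88047373-88053755), the founding splicing activator of the family, was at 97.5 and 95.6 in WT and at 97.3, 90.6 and 94.8 in TPdh-/- cells. Srsf5 was at 99.1 and 99 against 95.3, 94.5 and 98, and Srsf3, which also serves in mRNA export, at 89.9 and 65.6 against 76.1, 69.5 and 59.2. Srsf5 separated the groups and the other 2 did not. Srsf2, an SR protein that acts on exonic enhancers and is often mutated in myeloid neoplasms, was at 70 and 31.9 in WT. It had no peak in TPdh-/- replicate 1 and was at 42.4 and 72.6 in replicates 2 and 3. The peak of Srsf2 also lay near the start of Mfsd11. When a peak counted only for the gene with the nearest start site, Srsf2 was left without a peak in any library. Its mean difference of 12.6 then became 0, and the groups could not be compared. Srsf7 (chr17:80200080-80207307), another SR protein with roles in mRNA export, was at 90.9 and 72.7 in WT, had no peak in TPdh-/- replicates 1 and 2 and was at 58.7 in replicate 3. Its mean difference of 62.2 percentile points was the largest among members whose groups did not overlap (exact permutation test, two-sided p = 0.2). Srsf10, a splicing repressor when dephosphorylated, had a peak only in WT replicate 1, at 77.8.

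The hnRNP genes were led by Hnrnph3, Hnrnpa0 and Hnrnpr, with mean percentiles of 95.2, 91.4 and 89.5. Hnrnpll (chr17:80029487-80062334), the repressor of the variable exons of CD45, was at 85.8 and 70 in WT and at 44.5, 79.6 and 87.7 in TPdh-/- cells. The highest and the lowest of these values were both of TPdh-/- libraries, and the mean difference of 7.31 points lay within their spread (exact permutation test, two-sided p = 1). Hnrnpa1 (chr15:103240432-103246692), an abundant repressor of exon inclusion, was at 75.9 and 88.2 against 34.7, 78.2 and 79.5. Hnrnpk (chr13:58391142-58403343), a C-rich RNA and DNA binding protein, was at 98.2 and 52.2 against 93.5, 90.7 and 97.4, and had the most negative mean difference of the 28 members, −18.6. In both genes the groups overlapped. Hnrnpu, which binds nuclear scaffold RNA, was at 93.8 and 76.7 against 94.4, 66.5 and 83.4. Hnrnpc, a binder of uridine tracts, was at 89.7 and 41.3 in WT, without a peak in TPdh-/- replicate 1, and at 50.1 and 40.6 in replicates 2 and 3. Hnrnpa2b1 (chr6:51460932-51469894) was the 1 named hnRNP gene other than Hnrnpul1 with separate groups, at 97.3 and 93.8 in WT against 85.4, 49.9 and 91.8. Its peak also lay near the start of Cbx3.

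The members with a peak in all 5 libraries and the lowest mean ranks were Hnrnpul2, Hnrnpul1 and Hnrnpa1, and the members with the widest peaks were Hnrnpa3, Hnrnpul1 and Hnrnpul2. Hnrnpul1 and Hnrnpul2 encode relatives of hnRNP U. The peak of Hnrnpul1 (chr7:25721165-25754757) was 2031 and 2029 bp wide in WT and 1670, 1875 and 1882 bp in TPdh-/- cells, and its percentile was 81 and 61.9 against 50.2, 59 and 40.4. Both WT libraries were wider and ranked higher, and with lists of equal length the difference in percentile turned from 21.6 to −0.16. Hnrnpul2 had widths of 1937 and 1780 bp against 1392, 1680 and 1626 bp, with percentiles of 71 and 41.6 against 16.2, 40.3 and 47.9. The peak of Hnrnpa3, an hnRNP A/B protein, was 2541 and 1994 bp wide against 1434, 1668 and 2256 bp, and there the groups overlapped. Fold over background at these 3 genes was 2.06 to 2.81 in all libraries, below the median of the 28 members in each library.

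U2af2 (chr7:5062143-5079938), the large subunit that binds the polypyrimidine tract, was at 99 and 95.8 in WT and at 80.8, 89.9 and 98.3 in TPdh-/- cells. U2af1, the small subunit that reads the AG at the 3′ splice site, was at 84 and 34.2 in WT and had a peak in 1 TPdh-/- library, replicate 2, at 45.9. Neither gene separated the groups. Of the SF3 genes, Sf3b4, Sf3b3 and Sf3a2 had a peak in every library. Sf3b1 (chr1:54985169-55027481), which contacts the branch point, had wide and weak peaks. They were 3590 and 1994 bp wide in WT and 839 and 2408 bp in TPdh-/- replicates 1 and 3, with a fold of 1.65 to 1.97, percentiles of 3.15 to 26.8, and no peak in TPdh-/- replicate 2. Sf3a1, which helps to assemble the U2 snRNP, had a peak only in WT replicate 1, at 27.1. Sf3a3, the third SF3A subunit, had none. Sf3b2 had a promoter peak only in WT replicate 1, and in each of the 5 libraries 1 further peak inside the gene more than 3000 bp from its start sites.

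Snrpb (chr2:130171414-130179403), which encodes the Sm protein B, was the most highly ranked snRNP gene, at 89.9 and 78.1 in WT and at 77.7, 85.9 and 72.1 in TPdh-/- cells. The groups overlapped. Snrpd3 (chr10:75517551-75537381), another Sm core gene, was at 81.1 and 60.2 in WT and at 1.02, 0 and 55.2 in TPdh-/- cells, a mean difference of 51.9 points. Its peak also lay near the start of Gucd1. When a peak counted only for the gene with the nearest start site, Snrpd3 kept its peak in TPdh-/- replicate 3 alone. The difference then became −18.4 because the WT peaks no longer counted for Snrpd3, not because their ranks changed. Snrpc, a U1 snRNP protein, was at 71 and 41.4 against 0, 0 and 17.2, and Snrpb2, the U2 B″ protein, at 53.8 and 40.4 against 0 in all TPdh-/- libraries. Both separated the groups in the lists as deposited (exact permutation test, two-sided p = 0.2 for each). With lists of equal length neither could, since the cut at 4920 peaks removed both WT peaks of Snrpb2 and the WT replicate 2 peak of Snrpc. These peaks ranked 7369 and 5278 for Snrpb2 and 5192 for Snrpc. Snrpd1 had a peak only in WT replicate 1, at 35.3.

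Over all members with a peak in any library, 12 of 59 (20.3%) ranked higher in both WT than in all 3 TPdh-/- libraries, and 21.2% of 9493 coding genes did. None of the 59 ranked lower in both WT libraries (0.369% of coding genes). The 12 were Clk3, Hnrnpa2b1, Hnrnpul1, Sf3a2, Sf3b6, Snrpb2, Snrpc, Snrpd3, Srsf5, Srsf7, Srsf11 and Tra2a. A gene without a peak in TPdh-/- cells enters this count through its WT peaks, so the 28 members with a peak everywhere were also counted. Of these, 6 ranked higher in both WT libraries (21.4%, against 26.4% of coding genes) and 0 ranked lower (1.38% of coding genes). In the lists as deposited, the members' shares were near or below those of all genes. The count of 12 was limited most by WT replicate 2 and TPdh-/- replicate 3. It rose to 44 of 59 without the former (77.2% of coding genes) and to 22 without the latter (38% of coding genes). The 12 were kept in both cases, and leaving out a library can only keep or raise such a count. With lists of equal length 8 of 49 members (16.3%) ranked higher in both WT libraries and 3 (6.12%) ranked lower, against 9.58% and 6.6% of coding genes, and 7 of the 8 were among the 12.

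The median difference in percentile, WT minus TPdh-/-, was 6.29 points over the 28 members (range −18.6 to 24.8) and 9.21 over 2390 coding genes. With lists of equal length it was −4.17 over 26 members and −0.2 over coding genes, so the sign of the difference depended on the length of the lists. Without WT replicate 1, which had the longest list, it was 1.58, and without WT replicate 2 it was 11.6.

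Mean promoter peak width was greater in WT cells at most members, as at most coding genes. The median width over the 28 members was 1477.5 and 1191 bp in WT replicates 1 and 2 and 1054, 1119.5 and 1359 bp in TPdh-/- replicates 1, 2 and 3. TPdh-/- replicate 3 lay between the WT libraries, so the medians of the groups overlapped. The log2 width, WT minus TPdh-/-, had a median of 0.21 over the members, a 1.16-fold difference, and was above 0 at 27 of 28. Over coding genes the median was 0.30, a 1.23-fold difference, and 91.2% were above 0. Hnrnpl, a binder of CA repeats, was the 1 member with a slightly wider peak in TPdh-/- cells, with a log2 difference of −0.04. Peaks were wider in both WT than in all TPdh-/- libraries at 6 members (21.4%, against 31.3% of coding genes) and narrower in both at 0 (0.293% of coding genes). Leaving out WT replicate 1 brought the median to 0.07 and leaving out WT replicate 2 to 0.33.

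Fold over background was nearly level across the libraries. Its median over the 28 members was 3.08 and 3.05 in WT replicates 1 and 2 and 3.09, 3.08 and 3.09 in TPdh-/- replicates 1, 2 and 3. The 2390 coding genes had 3, 2.95, 2.9, 2.85 and 2.93. The median log2 difference over members was −0.012 (range −0.16 to 0.21) and was above 0 at 10 of 28 members, against 0.028 and 60.4% of coding genes. The fold was higher in both WT than in all TPdh-/- libraries at 3 members (10.7%, against 15.8% of coding genes) and lower in both at 2 (7.14%, against 8.08%). The sign of this median changed with the library left out, from −0.045 without TPdh-/- replicate 3 to 0.016 without WT replicate 2, so no direction can be given.

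**Figure D4:**
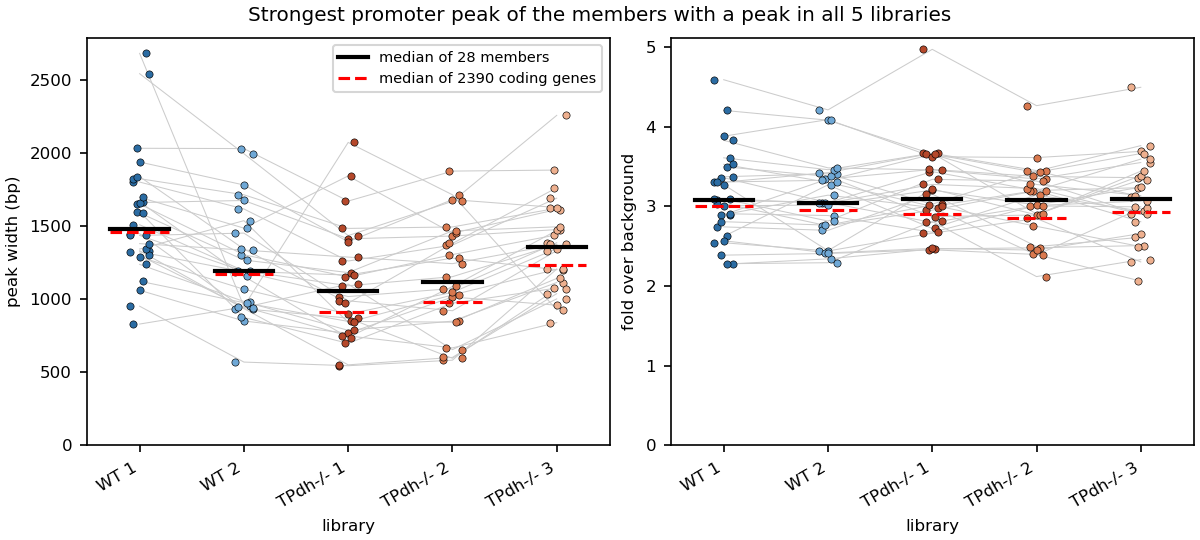
Width (bp, left) and fold over background (ratio, right) of the strongest promoter peak in each library for the 28 members with a peak in all 5 libraries. Points are genes joined by grey lines across libraries, black bars are medians of the members and red dashed bars medians of 2390 coding genes. Widths follow the length of the lists, with medians from 1054 to 1477.5 bp, and median folds stay between 3.05 and 3.09.

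The strongest promoter peak spanned an annotated start site of the member in 84.5% and 87% of members with a peak in WT replicates 1 and 2 and in 84.8%, 92.1% and 93.6% in TPdh-/- replicates 1, 2 and 3. Over coding genes these shares were 79.9%, 72.8%, 71.1%, 73.8% and 76.2%. Hnrnpa0 and Hnrnpf, an hnRNP that binds G-rich RNA, were exceptions in every library. The peak of Hnrnpa0 lay wholly upstream, from −1272 to −213 bp in WT replicate 1. Hnrnpf had 3 promoter peaks in the same library and 10 annotated start sites. Its strongest peak lay wholly downstream of the nearest of these sites, from 147 to 1097 bp. At Clk1 the peak reached from −146 to 1176 bp in WT replicate 1, and at Tra2a from −136 to 985 bp. Another coding gene had a start site within 3000 bp of the peak at 31.6% to 38.3% of members with a peak and at 30.6% to 32.3% of coding genes, and there the peak cannot be given to the splicing factor alone. This applied in at least 1 library to 21 members, namely Clk4, Hnrnpa1, Hnrnpa2b1, Hnrnpd, Hnrnpdl, Hnrnph2, Hnrnph3, Hnrnpk, Hnrnpul2, Sf3a1, Sf3a2, Sf3b2, Sf3b3, Sf3b4, Snrpa, Snrpd2, Snrpd3, Srsf2, Srsf7, Srsf11 and U2af1l4. When each peak counted only for the gene with the nearest start site, 25 of 61 members had a peak in all 5 libraries and 8.53% of coding genes did.

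**Figure D5:**
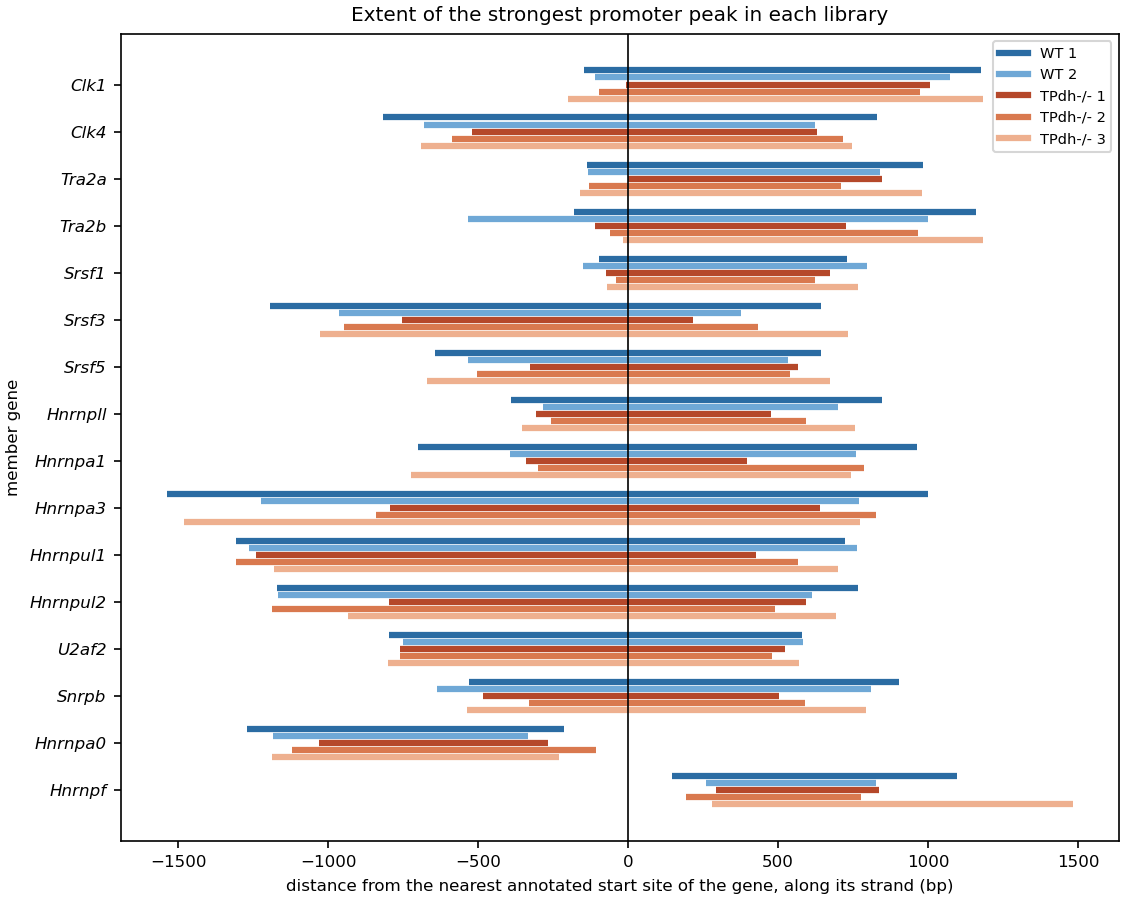
Extent of the strongest promoter peak in each library for 16 members, as distance (bp) along the gene's strand from the annotated start site nearest to the peak's middle, at 0. Each bar is 1 library (WT blue, TPdh-/- red). Most peaks span the start site, and those of Hnrnpa0 and Hnrnpf lie to one side of it.

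Other spliceosome and splicing regulator genes were taken from lists chosen by role. Apart from a list of 20 tissue-restricted regulators, these held 112 genes outside the member families. Of the 112, 42 (37.5%) had a promoter peak in all 5 libraries and 16 in none. Of the 96 with a peak in any library, 27 (28.1%) ranked higher in both WT libraries and 0 ranked lower, against 21.2% and 0.369% of coding genes. The share in all 5 libraries was 8 of 17 among SR-related proteins and SR kinases, 5 of 11 among U2 associated proteins, 9 of 21 in the Prp19 complex and catalytic step, 9 of 23 among other broadly expressed regulators and 5 of 13 among exon junction and export genes. It was lower among tri-snRNP and U1/U5 proteins (4 of 18) and Lsm proteins (2 of 9), the ring proteins related to the Sm core. Of the 20 tissue-restricted regulators, known from brain, muscle or epithelium, none had a peak in all 5 libraries and 19 had none in any.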

How the data were processed

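The authors aligned ChIPseq reads to GRCm38/mm10 with BWA-mem 0.7.17, used Samtools 1.15.1 to discard reads that mapped to several places or to blacklisted regions, and called broad peaks in each library with MACS2 2.2.6, after quality checks with FastQC 0.11.9. The deposited lists give for each peak a fold over the background estimated by the authors' caller, as a linear ratio, and the −log10 p and −log10 q of the authors' caller. They also hold a score column of the authors' caller, which was not used, nor was the −log10 p. The lowest −log10 q in the lists was 1.00 to 1.03. Whether an input control was used is not given in the sources used here, and the number of reads kept per library is not given there either (the labels name an aim of at least 37000000 reads of 51 bases), which limits what an absent peak can mean. DiffBind and ChIPseeker outputs of the authors were not used here.

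Promoters were scored with Python 3.11.15, numpy 2.4.6 and pandas 2.3.3 as any peak within 3000 bp of 93513 start sites of protein-coding genes in GENCODE, and figures drawn with matplotlib 3.10.9. For each gene and list the peak with the highest −log10 q was taken. The percentile of this peak within its list was compared between groups by exact permutation over the 10 assignments of 5 libraries to 2 and 3, and all other results are counts and medians beside those of all coding genes. Replicates are separate samples per the labels, which do not say whether they came from separate animals. Peaks were also simulated over start sites of genes with no real peak and no other start site nearby. At these genes 1000 of 1000 presence calls were recovered, which checks the scoring steps and not promoters shared by several genes.

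The members and lists were chosen with earlier results of these data known. Genes named are 21 fixed by role, members with no peak, the 3 highest, lowest and widest of those with a peak in all libraries, members with a peak in 1 group alone, and the 3 largest differences in each direction among members whose groups did not overlap. The other members are named in counts and, for Clk2, Clk3, Hnrnpa0, Hnrnpf, Hnrnph3, Hnrnpl, Hnrnpr, Sf3b2, Sf3b5 and the genes of the promoter sequences, after their values were seen. Ddx39a of the export list was not found in the annotation under this symbol.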

Additional observations from a re-analysis of the deposited data

How the results depend on the processing

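With a −log10 q of at least 5, a mean of 35 members had a peak in WT libraries (16.3% of coding genes) and 21.3 in TPdh-/- libraries (6.18%). A peak in all 5 was left at 9 members (1.67% of coding genes). Their median percentile difference was 18.4 (15.5 over coding genes) and their median log2 fold difference −0.039 (0.017 over coding genes). With lists of equal length, 3 members ranked lower in both WT libraries, the median percentile difference became −4.17 and that of Hnrnpul1 −0.16. With the nearest start site alone, the difference of Snrpd3 became −18.4, since only its TPdh-/- replicate 3 peak still counted for this gene. With all 5 libraries, 12 members ranked higher in both WT libraries and 0 lower. Leaving out 1 library can only keep or raise these counts, since fewer libraries have to be apart. Then 15 to 44 members ranked higher in WT (23.3% to 77.2% of coding genes), with all 12 kept each time. At most 4 ranked lower, without WT replicate 1 (6.61% of coding genes). The median percentile difference ranged from 1.58 to 11.6 and the median log2 fold difference from −0.045 to 0.016. The cause of the other changes was not tested. With the number of the replicate as a block (a replicate block of numbers 1 and 2, without TPdh-/- replicate 3), 28 of 58 members (48.3%, against 42.8% of coding genes) ranked higher in both pairs and the median log2 fold difference was −0.045. The labels do not say that a number is shared, and over 2390 genes the deviations of same-numbered libraries from their group means correlated at −0.049 and 0.049.

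A −log10 q of at least 2, promoters within 1000 bp, the nearest start site, start sites of protein-coding transcripts, the widest peak and, chosen after seeing the data, the 5′-most start site moved no count by over 1.5 times and no median by more than the spread between replicates. Of 364 values of 28 named genes with a peak, under 13 alternatives each, 25 changed sign, 23 of them at genes whose groups overlapped. Lists of equal length gave more of these changes than any other alternative. They changed the sign at Clk1, Hnrnpa1, Hnrnpa3, Hnrnpll, Hnrnpu, Hnrnpul1, Hnrnpul2, Sf3b1, Snrpb, Srsf1, Srsf2 and Srsf3. Several of the other alternatives changed no sign. Beyond the sequencing aim in the labels, the reads kept per library are not known, so weak promoters cannot be told from promoters without acetylation.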
